A study of Mus musculus with 4 samples.

Results

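The genes described here encode the DEAD-box and DEAH-box RNA helicases and the factors that remove, bind or shorten the poly(A) tail and then degrade the messenger. Members were chosen by symbol alone, as spots whose single gene symbol begins with DDX, DHX, CNOT, EXOSC, LSM, DCP, XRN, PABP, PCBP, SMG or EDC or is an Argonaute. They took 86 of 9600 spots and 64 of 6284 genes, of which 42 spots of 29 genes carry a DDX or DHX symbol and are counted with the helicases, and 44 spots of 35 genes are counted with the decay factors. UPF, TNRC6 and XRN1 genes were not analysed here, and AGO2 was the single Argonaute and XRN2 the single XRN nuclease among the members. A total of 17 genes had 2 or 3 spots and the other 47 had 1 spot. Of the 64 symbols, 62 match a mouse gene by their letters. The other 2 are DCPH1, for which no role is given here, and DDX11L2, a DDX11-like transcript that is not a helicase gene of the mouse, and both are kept in these counts because the symbol alone chose the members.

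The samples were stimulated axons, unstimulated axons, stimulated cell bodies and unstimulated cell bodies of dorsal root ganglion (DRG) sensory neurons. All came from NIH Swiss mouse embryos of day 13.5 and were grown for 3 weeks in Campenot chambers, in which axons extend beneath a partition and can be collected without their cell bodies. Stimulated cultures received electrical stimulation for 2 h through platinum electrodes and unstimulated cultures received none, and all cultures had been treated with fluorodeoxyuridine against dividing non-neuronal cells. Per the labels, each condition was 1 pool of 3 coverslips, and it was put on 1 nylon membrane array of cDNA clones. For its nylon arrays the paper describes pooling the RNA of 2 separate experiments per condition. With 1 array per condition, no difference below has a replicate or a test, and every value describes these 4 membranes.

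Most messengers are degraded after their poly(A) tail has been shortened, chiefly by the CCR4-NOT complex. The body is then destroyed from the 5′ end, after decapping enzymes aided by the LSM ring have removed the cap, or from the 3′ end by the exosome. Poly(A) binding proteins protect the tail, Argonaute proteins bring microRNAs to the messenger, and the SMG proteins act in nonsense-mediated decay. DEAD-box and DEAH-box helicases remodel RNA and RNA-protein complexes during splicing, export, ribosome assembly and translation. In axons, which are far from the nucleus, local stability is one way to set the amount of a messenger.

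Intensities are phosphor imager readings with no physical unit. Differences are given as z ratios, which are the difference between the z-scores of a spot on 2 arrays (from log10 intensity over all 9600 spots) scaled so that this difference has an SD of 1 over all spots. The threshold for calling a spot higher or lower was a z ratio whose size reached 1.4. Ratios are of intensities after division by the array median, which was 102.5 in stimulated axons, 89.3 in unstimulated axons, 118.1 in stimulated cell bodies and 159.7 in unstimulated cell bodies. An intensity counted as above background over 42.53 in stimulated axons, 21.9 in unstimulated axons and 10, a value that many spots share and that is assumed here to be filled in, on both cell body arrays, and 71, 78, 81 and 85 of the 86 member spots lay above it on the 4 arrays in that order. Different spots of 1 gene gave the error of 1 spot. Over all genes with several measured spots their SD around the gene was 0.621 z ratio units for stimulation in axons, 0.535 for stimulation in cell bodies, 0.706 for stimulated axons against stimulated cell bodies and 0.621 for unstimulated axons against unstimulated cell bodies. These SDs cover the difference between clones on the same membranes and leave out the difference between cultures. The layout of the membranes was not stated, and positions, rows and neighbours below assume the deposited order in rows of 50 spots.

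Of 24 neuronal markers listed, 11 were spotted and all 11 lay above background on every array. THY1 was highest among them, at 44.2 times the array median in stimulated axons, 46.8 in unstimulated axons, 61.3 in stimulated cell bodies and 44.2 in unstimulated cell bodies. The median neuronal marker stood far lower, at 1.11, 0.961, 1.03 and 1.06 times the array median in the same order. Markers of other cells were above background too. The fibroblast gene FN1 stood at 105 times the median in stimulated axons, 104 in unstimulated axons, 94.1 in stimulated cell bodies and 71.3 in unstimulated cell bodies, and 3 or 4 of the 5 fibroblast markers spotted were above background. The macrophage gene C1QB stood at 161, 150, 123 and 100 times the median in the same order, with 6 of 6 macrophage markers above background, and the glial gene SOX10 at 9.43, 7.63, 8.52 and 6.31 times, with 5 of 5. Summed over the array median, the markers of fibroblasts and macrophages were at 109 and 179 in stimulated axons, against 108 and 171 in unstimulated axons. FN1, C1QB and SOX10 were each the highest of their list, and FN1 and C1QB made up most of these sums. The median fibroblast marker stood at 1.02, 0.859, 1.23 and 1.12 times the array median, in the same order of arrays. The median macrophage marker stood at 2.95, 2.97, 4.89 and 3.67 times, and the median glial marker at 1.59, 1.24, 1.06 and 1.13 times. No endothelial marker was spotted. The part of these other cells in the values of the members was not tested, and fewer cells of a type cannot be told apart from less RNA per cell.

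In axons, DCPS, PCBP3 and a spot of DHX30 were lower and LSM10 was higher with stimulation, and these were the spots past the threshold that lay above background on both arrays. Of 86 member spots, 5 were higher and 6 lower in stimulated axons. These are 5.81% and 6.98% of the members, beside 3.34% higher and 5.6% lower of all 8496 spots that name 1 gene. Among the 70 member spots above background on both axon arrays, 1 was higher and 3 were lower, beside 1.44% and 3.92% of all named spots so measured. A log2 ratio gave 5 higher and 2 lower member spots, and a robust z-score gave 8 and 5, which together are 8.14% and 15.1% of the members, beside 6.07% and 8.92% of all named spots. The median z ratio was 0.209 for the 35 decay genes and 0.11 for the 29 helicase genes, against 0.024 for all 6284 genes.

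**Figure D1:**
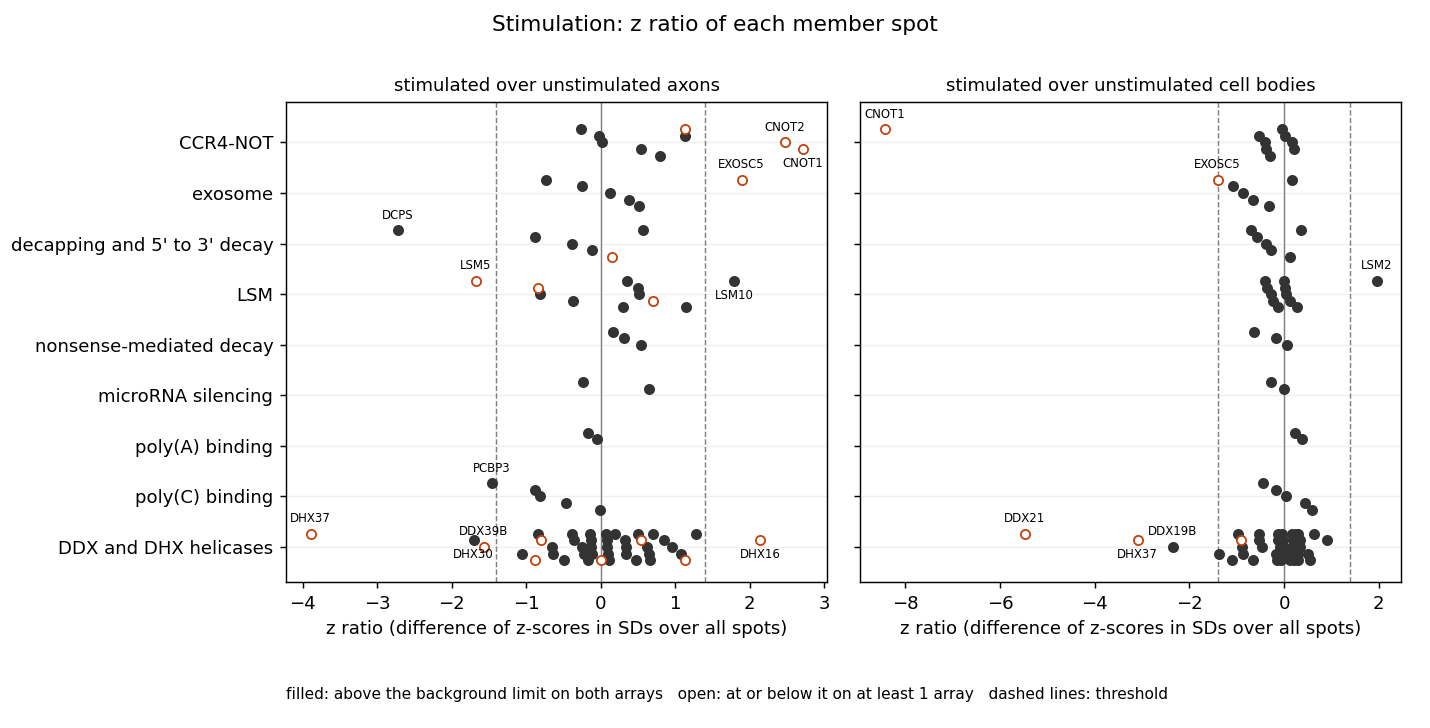
z ratio of each of 86 member spots for stimulated over unstimulated axons (left) and stimulated over unstimulated cell bodies (right), grouped by role, with the 2 panels on different horizontal scales. Filled points were above background on both arrays, open points were not, and dashed lines mark a z ratio of 1.4 in size. Names are given past the threshold, where 7 of 11 spots in axons and 4 of 6 in cell bodies are open points.

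Tail shortening and capture of the tail come first. All 7 CCR4-NOT genes had a z ratio above 0 in stimulated axons, with a median of 0.789, whereas 3244 of all 6284 genes did, and all 7 stayed above 0 under the 8 settings that keep every spot. The 6 CCR4-NOT spots that were above background on both axon arrays gave a lower median, of 0.276, with 4 of them above 0. CNOT3, a subunit of the regulatory NOT module, read 2044.94 in stimulated axons, against 1359.93 in unstimulated axons, and 1698.07 in stimulated cell bodies, against 1790.79 in unstimulated cell bodies. Its z ratio in axons was 0.789, a ratio of 1.31, and 0.554 with position centring, beside a spread of 0.621 for 1 spot. The catalytic deadenylases were nearer 0, with CNOT7 at 0.541 (2089.59 in stimulated axons, 1550.55 in unstimulated axons) and CNOT8 at 0.011 (84.04 in stimulated axons, 66.87 in unstimulated axons). CNOT10 had a spot at 1.134 and another at -0.027, so that its spots differed by more than the spread of 1 spot.

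The largest CCR4-NOT values came from spots near the background. CNOT1, the scaffold of the complex, read 42.48 in stimulated axons, against 10 in unstimulated axons, where the first value lies just under the background limit, and 0.59 in stimulated cell bodies against 59.01 in unstimulated cell bodies. For stimulation, only the cell body difference has a bound, at least 4.37-fold lower in stimulated cell bodies. The neighbours of CNOT1 in the deposited order, TUBG1 and SERPINA3, were at least 23.8 times as bright on every array. CNOT2 had a dim spot, at 37.63 in stimulated axons and 9.79 in unstimulated axons with a z ratio of 2.469, and a measured spot, at 49.95 in stimulated axons and 43.73 in unstimulated axons, with a z ratio of -0.266. CNOT9 read 26.45 in stimulated axons, against 12.18 in unstimulated axons, both under the limit. CNOT1 and CNOT9 therefore give no measured difference in axons.

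Poly(A) binding was near the array's centre. PABPC1, which coats the tail in the cytoplasm, read 54.86 in stimulated axons, 43.82 in unstimulated axons, 68.83 in stimulated cell bodies and 87.22 in unstimulated cell bodies, with a z ratio of -0.046 in axons and 0.231 in cell bodies. PABPN1, its nuclear counterpart, gave -0.173 and 0.385. Both lay within the spread of 1 spot of 0.

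The poly(C) binding proteins bind C-rich stretches of messengers and can stabilize them. All 5 of their spots were measured on every array and all 5 were below 0 in stimulated axons, with a median over the 3 genes of -0.877 against 0.024 for all genes. PCBP3 read 55.69 in stimulated axons, against 82.79 in unstimulated axons (z ratio -1.462, ratio 0.586), and it was the single member of the group past the threshold, which it did not pass with a log2 ratio, a robust z-score or quantile normalization. PCBP2 read 208.87 in stimulated axons, against 256.9 in unstimulated axons, and 550.68 in stimulated cell bodies, against 529.66 in unstimulated cell bodies, with z ratios of -0.877 in axons and 0.435 in cell bodies. The 3 spots of PCBP4 gave -0.809, -0.468 and -0.01 in axons, and the brightest of them, at 3848.58 in stimulated axons and 3749.82 in unstimulated axons, was the one nearest 0. In cell bodies 3 of the 5 spots were above 0. Their places in the deposited order ran the same way in part, since the assumed row of 50 spots that holds PCBP2 had a median of -0.318 and that of PCBP3 a median of -0.229 in axons. All 3 genes stayed below 0 under each setting for which their median was computed, with medians between -0.23 and -1.325, and with position centring the median was -0.576. It was not computed with only spots above the array mean.

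The largest measured value in axons was that of a decapping enzyme. DCPS, the scavenger enzyme that hydrolyses the cap left after decay from the 3′ end, read 77.93 in stimulated axons, 204.87 in unstimulated axons, 287.04 in stimulated cell bodies and 422.39 in unstimulated cell bodies. Stimulated axons thus had the lowest of its 4 readings, and the only one under its array's median. Its z ratio was -2.723 in axons (ratio 0.331) and -0.372 in cell bodies (ratio 0.919). After centring by assumed position it was -2.783 in axons, and the row around it had a median of 0.101. DCPS had 1 spot, so that no other clone bears on it.

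The factors of decapping and decay from the 5′ end were closer to 0. DCP1A, an activator of the decapping enzyme, read 114.16 in stimulated axons, against 97.71 in unstimulated axons (z ratio -0.12). EDC3, an enhancer of decapping, had both spots below 0, at -0.382 and -0.885. XRN2, the nuclear 5′ to 3′ exonuclease, read 634.12 in stimulated axons, 439.32 in unstimulated axons, 746.32 in stimulated cell bodies and 722 in unstimulated cell bodies, with z ratios of 0.56 in axons and 0.364 in cell bodies. No spot of these genes was past the threshold in cell bodies.

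**Figure D2:**
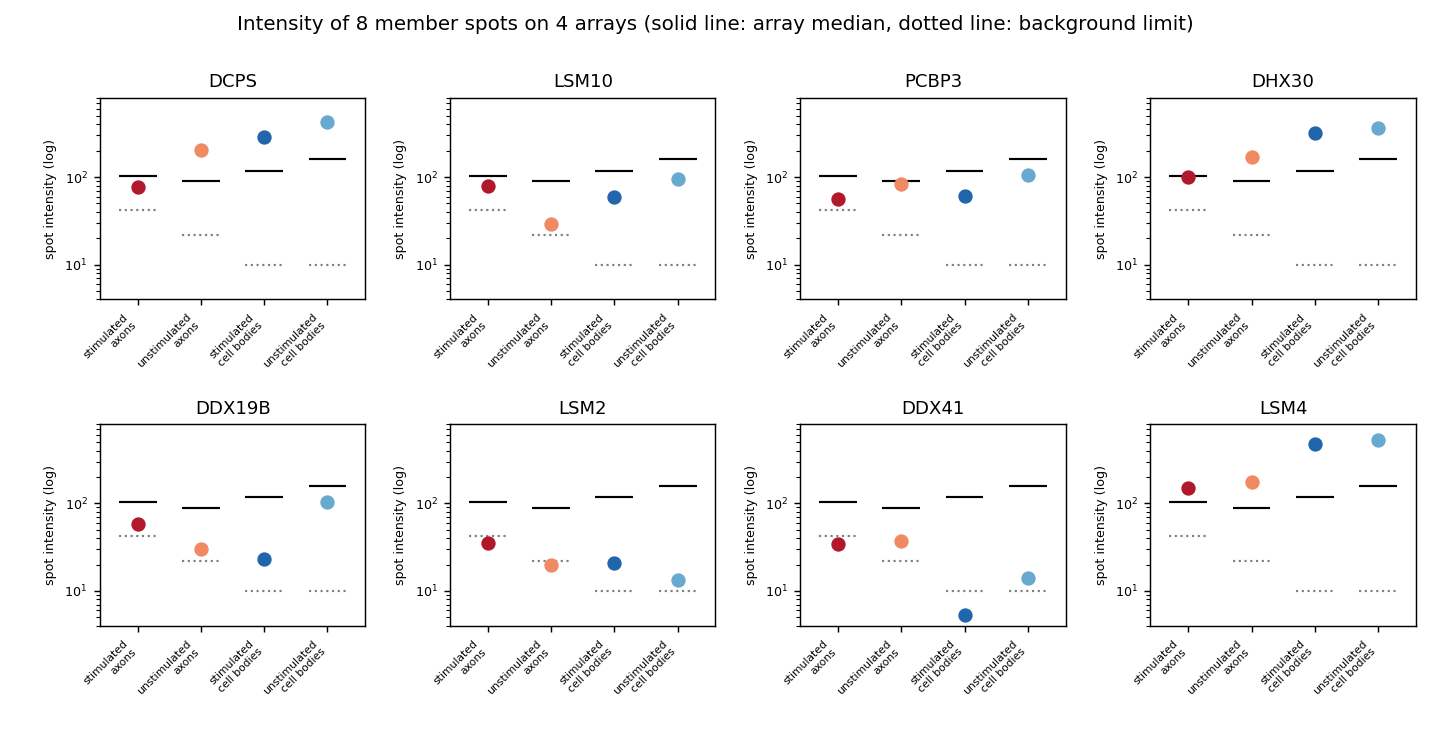
Spot intensity (log axis) of 8 member spots on the arrays of stimulated axons, unstimulated axons, stimulated cell bodies and unstimulated cell bodies, 1 point per array. Solid lines mark the array median and dotted lines the background limit. DCPS falls under the array median in stimulated axons only, DDX19B has its lowest reading, 23.28, in stimulated cell bodies, and LSM10 its lowest, 28.97, in unstimulated axons.

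The LSM proteins form rings on RNA, of which LSM1 marks the cytoplasmic decay ring and LSM8 the nuclear ring of U6 RNA. LSM1 was among the 3 brightest decay factors, at 6215.3 in stimulated axons, 4922.24 in unstimulated axons, 8954.13 in stimulated cell bodies and 8220.89 in unstimulated cell bodies, and its z ratio was 0.518 in axons and 0 in cell bodies. LSM8 gave 0.347 and 0.038, and the shared subunit LSM6 gave 0.505 and 0.266. LSM10, which belongs to the U7 particle that processes histone messengers and not to the decay ring, read 79.75 in stimulated axons, 28.97 in unstimulated axons, 59.33 in stimulated cell bodies and 94.26 in unstimulated cell bodies. Its unstimulated axon reading was the lowest of the 4 and near the limit of 21.9, and the z ratio was 1.794 in axons (ratio 2.4) and -0.236 in cell bodies. With position centring the axon value was 1.423.

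LSM5 went the other way in axons. It read 38.5 in stimulated axons, under the limit, and 61.69 in unstimulated axons, which gives at least 1.67-fold lower in stimulated axons. LSM3, another ring subunit, also lay under the limit there, at 38.61, against 42.87 in unstimulated axons. LSM4 showed how far clones of 1 gene can part, since its 3 spots gave -0.371, -0.817 and 1.139 in axons at intensities of 1609.77, 149.93 and 96.43 in stimulated axons. LSM14A, a translational repressor of P-bodies and the brightest decay factor, read 16155.01 in stimulated axons, 14814.61 in unstimulated axons, 15705.96 in stimulated cell bodies and 16171.79 in unstimulated cell bodies, with z ratios of 0.294 in axons and -0.359 in cell bodies.

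For decay from the 3′ end, 4 of 5 exosome genes were above 0 in stimulated axons, with a median of 0.126, and 3 of 5 with a log2 ratio, quantile normalization, loess or position centring. EXOSC5, a subunit of the ring, had its larger value, 1.889, from 31.06 in stimulated axons and 10.32 in unstimulated axons, both under the background limit. EXOSC4, another ring subunit and the brightest, read 1271.52 in stimulated axons, against 1107.53 in unstimulated axons, with a z ratio of 0.118. EXOSC2, a cap subunit, read 172.33 in stimulated axons, against 196.78 in unstimulated axons, with a z ratio of -0.73.

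The 3 factors of nonsense-mediated decay were above 0 in axons, with a median of 0.305, and 2 of 3 with position centring. SMG5 read 3273.18 in stimulated axons, 2490.52 in unstimulated axons, 3465.69 in stimulated cell bodies and 3362.82 in unstimulated cell bodies, and its z ratios were 0.536 in axons and 0.062 in cell bodies. SMG8 and SMG9, partners of the SMG1 kinase, gave 0.305 and 0.158 in axons, both less than the spread of 1 spot. AGO2, the slicing Argonaute, had spots of 7195.48 and 45.05 in stimulated axons, against 5418.02 and 38.64 in unstimulated axons, with z ratios of 0.65 and -0.232.

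Among the helicases, 1 spot was higher and 3 were lower in stimulated axons, and 1 of these 4 was measured on both arrays. DHX30, which acts in mitochondrial RNA granules, had that spot, at 100.63 in stimulated axons, 171.54 in unstimulated axons, 322.73 in stimulated cell bodies and 363.31 in unstimulated cell bodies. The axon z ratio was -1.706 (ratio 0.511), but with position centring it was -1.178, and the gene's other spot read 57.17 in stimulated axons, against 43.22 in unstimulated axons, with a z ratio of 0.084. Of the other spots past the threshold, DHX16, a splicing helicase, had a dim spot at 49.91 in stimulated axons and 15.24 in unstimulated axons, at least 1.99-fold higher in stimulated axons. Its brighter spot, at 352.4 in stimulated axons and 294.07 in unstimulated axons, gave 0.068. DHX37, a ribosome assembly helicase, read 6.69 in stimulated axons, under the limit of 42.53, and 25.95 in unstimulated axons, so its z ratio of -3.893 carries no fold. The dimmer spot of DDX39B, at 5.41 in stimulated axons and 7.49 in unstimulated axons, was under the limit on both arrays.

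Bright spots with a DDX or DHX symbol stayed within 1 z ratio unit of 0 in axons. DDX42, a splicing helicase and the brightest member, read 20467.32 in stimulated axons, 17352.8 in unstimulated axons, 19186.55 in stimulated cell bodies and 17830.61 in unstimulated cell bodies, with z ratios of 0.5 in axons and -0.173 in cell bodies. The related coregulators DDX5 and DDX17 gave 0.704 and 0.467 in axons. DDX5 read 1712.58 in stimulated axons, against 1171.43 in unstimulated axons, and DDX17 read 988.89 in stimulated axons, against 730.04 in unstimulated axons. DDX11L2, counted here by its symbol, gave 0.853, from 6387 in stimulated axons and 4373.16 in unstimulated axons. Lower values were those of DDX50, a nucleolar relative of DDX21, at -0.252, of DHX58, a cytoplasmic sensor of viral RNA, at -0.168, of DDX24 at -0.27 and of DDX54, a ribosome assembly helicase, at -0.287. All of these are means over the spots of a gene.

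Position in the range of brightness moved with these values. Among spots over 1 SD above the array mean, the 18 member spots had a median of 0.403 in axons, with 12 above 0, and all 1481 named spots a median of 0.246, and with loess these medians were 0.077 and 0.018. Below the array mean the medians were 0.007 for 50 member spots and -0.06 for 5001 named spots. Of the 11 member spots past the threshold in axons, 9 lay below the array mean over 4 arrays and the other 2, DCPS and a spot of DHX30, lay within 1 SD above it.

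In cell bodies, the export helicase DDX19B was lower and LSM2 was higher with stimulation, and 4 of 5 exosome genes were below 0. Of 86 member spots, 1 was higher (1.16%) and 5 were lower (5.81%) in stimulated cell bodies, beside 1.49% and 3.39% of all named spots. Among 81 member spots above background on both arrays, 1 was higher and 1 was lower, beside 0.688% and 2.25% of all named spots so measured. The median z ratio was -0.177 for decay genes and -0.034 for helicase genes, against 0.047 for all genes.

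DDX19B, which releases proteins from messengers at the nuclear pore, read 23.28 in stimulated cell bodies, against 104.94 in unstimulated cell bodies, with 58.15 in stimulated axons and 30.06 in unstimulated axons. Its z ratio was -2.344 in cell bodies (ratio 0.3) and 0.953 in axons. The near-identical paralog DDX19A had spots at -0.074 and -0.97 in cell bodies, and cross-hybridization between clones of the pair cannot be told apart from either gene's own signal. A spot next to that of DDX19B, COX6B1, was at least 137.4 times as bright on every array. LSM2, a ring subunit, read 20.93 in stimulated cell bodies, against 13.4 in unstimulated cell bodies (z ratio 1.958, ratio 2.11), both just above the limit of 10, and its axon readings of 35.03 in stimulated axons and 19.7 in unstimulated axons were under the limits there.

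The exosome had a median of -0.657 in cell bodies, where 2831 of all 6284 genes were below 0. Its median stayed below 0 under each setting for which it was computed, between -0.17 and -0.929. It was not computed with only spots above the array mean, where 1 exosome spot lay. EXOSC3, a cap subunit, passed the threshold at neither spot, with 93.96 and 34.19 in stimulated cell bodies, against 190.33 and 83.38 in unstimulated cell bodies, at z ratios of -0.858 and -1.07. EXOSC7, of the ring, read 60.7 in stimulated cell bodies and 116.59 in unstimulated cell bodies (z ratio -0.657). The bright EXOSC4 was the exception, at 1673.05 in stimulated cell bodies and 1653.73 in unstimulated cell bodies, with 0.161. EXOSC5, at 10 in stimulated cell bodies and 31.62 in unstimulated cell bodies, was at least 2.34-fold lower in stimulated cell bodies. Spots below the array mean had a median of -0.103 over 5001 named spots, 2177 of them above 0, and of -0.332 over 50 member spots, 14 of them above 0, and 3 of the 4 exosome genes below 0 were below that mean.

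The other helicases past the threshold in cell bodies rest on readings at the floor. DHX37 read 10 in stimulated cell bodies and 68.36 in unstimulated cell bodies, at least 5.06-fold lower in stimulated cell bodies, and was the single gene lower past the threshold in both compartments, though not measured on all 4 arrays. DDX21, a nucleolar helicase, had a mean of -2.021 that came from 1 spot with readings of 0.37 in stimulated cell bodies and 10 in unstimulated cell bodies, and its other spots gave -0.874 and 0.287. The spot with 0.287, at 1052.08 in stimulated cell bodies and 1022.72 in unstimulated cell bodies, is the brightest of the 3.

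By z ratio, the bright helicases and decay factors lay close to 0 in cell bodies, but this depended on the scaling. Over 1 SD above the array mean, the 18 member spots had a median of 0.004, with 0.51 by log2 ratio and -0.879 by robust z-score. For all 1481 named spots of that brightness these medians were 0.053, 0.483 and -0.818. The SD of z ratios over the 18 member spots more than 1 SD above the array mean was 0.185, beside 0.212 for all 1481 named spots of that brightness. DDX39A, an export helicase, read 6499.49 in stimulated cell bodies and 6543.77 in unstimulated cell bodies, with -0.14. CNOT7 gave 0.203 and DDX17 gave 0.254, and the ribosome assembly helicase DDX47, of medium brightness, gave 0.554. It read 200.68 in stimulated cell bodies and 199.81 in unstimulated cell bodies, a ratio of 1.36 after division by the array medians. That is a log2 ratio of 0.441, beside a median of 0.185 over all named spots and 0.483 over the 1481 bright ones. DHX32, SMG9 and DDX54 gave 0.203, -0.177 and 0.179.

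Of the 70 member spots above background on all 4 arrays, 20 had a z ratio above 0 and 19 a z ratio below 0 for stimulation in both compartments. That is 55.7%, beside 50.6% of all named spots. None of these 70 was past the threshold in both compartments, beside 5 higher, 4 lower and 7 opposite of 7377 named spots, and outside them DHX37, CNOT1 and EXOSC5 were past it in both on readings under a background limit.

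**Figure D3:**
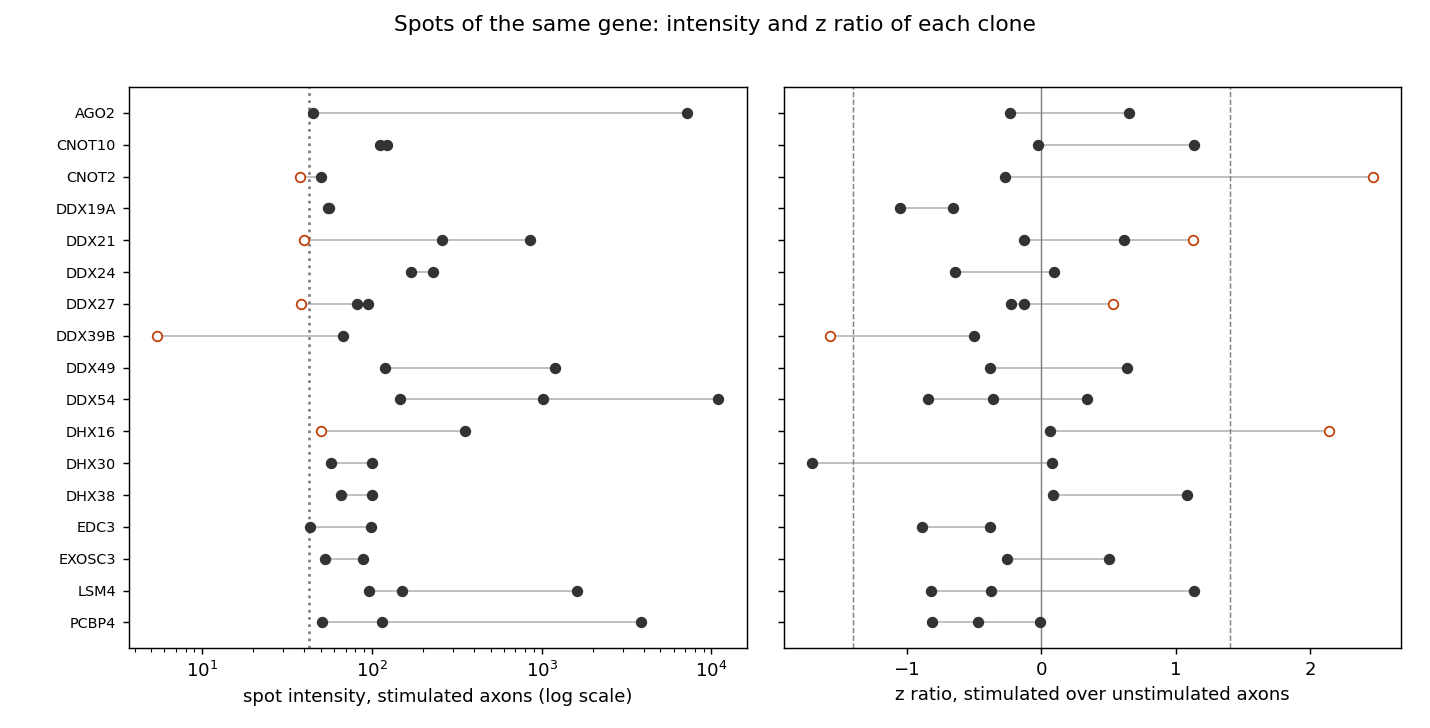
Spots of the 17 member genes that had 2 or 3 spots, with intensity in stimulated axons on a log axis (left, dotted line at the background limit of 42.53) and the z ratio of stimulated over unstimulated axons (right, dashed lines at 1.4 in size). Filled points were above background on both axon arrays and a grey line joins the spots of a gene. The 2 spots of AGO2 read 7195.48 and 45.05, and DHX30 and CNOT2 each have a spot past the threshold and another near 0.

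Axons were next set against cell bodies. With stimulation, 4 of 86 member spots were higher (4.65%) and 5 lower (5.81%) in axons, beside 2.92% and 5.74% of all named spots. Among 71 member spots measured on both arrays, 1 was higher and 3 were lower, beside 1.41% and 4.92%. Without stimulation, 2 spots were higher (2.33%) and 5 lower (5.81%) in axons, beside 3.6% and 3.41% of all named spots, and of 78 measured spots 1 was higher and none lower, beside 2.56% and 2.03%. Medians of helicase and decay genes were 0.081 and 0.092 with stimulation and 0.058 and 0.049 without, against -0.041 and -0.062 for all genes. No member was past the threshold in both comparisons among spots above background on 4 arrays, where 0.312% of all named spots were higher in axons in both and 0.786% were lower in both. A log2 ratio gave 11 higher and 7 lower with stimulation and 5 and 5 without, a robust z-score 14 and 3 and 3 and 5, quantile normalization 3 and 6 and 1 and 6, and loess 2 and 7 and 1 and 6. With stimulation, 20.9% of members and 18.8% of all named spots passed with a log2 ratio, 19.8% and 14.7% with a robust z-score, 10.5% and 8.45% with quantile normalization and 10.5% and 9.4% with loess. Without stimulation these shares were 11.6% and 12%, 9.3% and 7.22%, 8.14% and 7.64%, and 8.14% and 7.73%, in the same order.

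**Figure D4:**
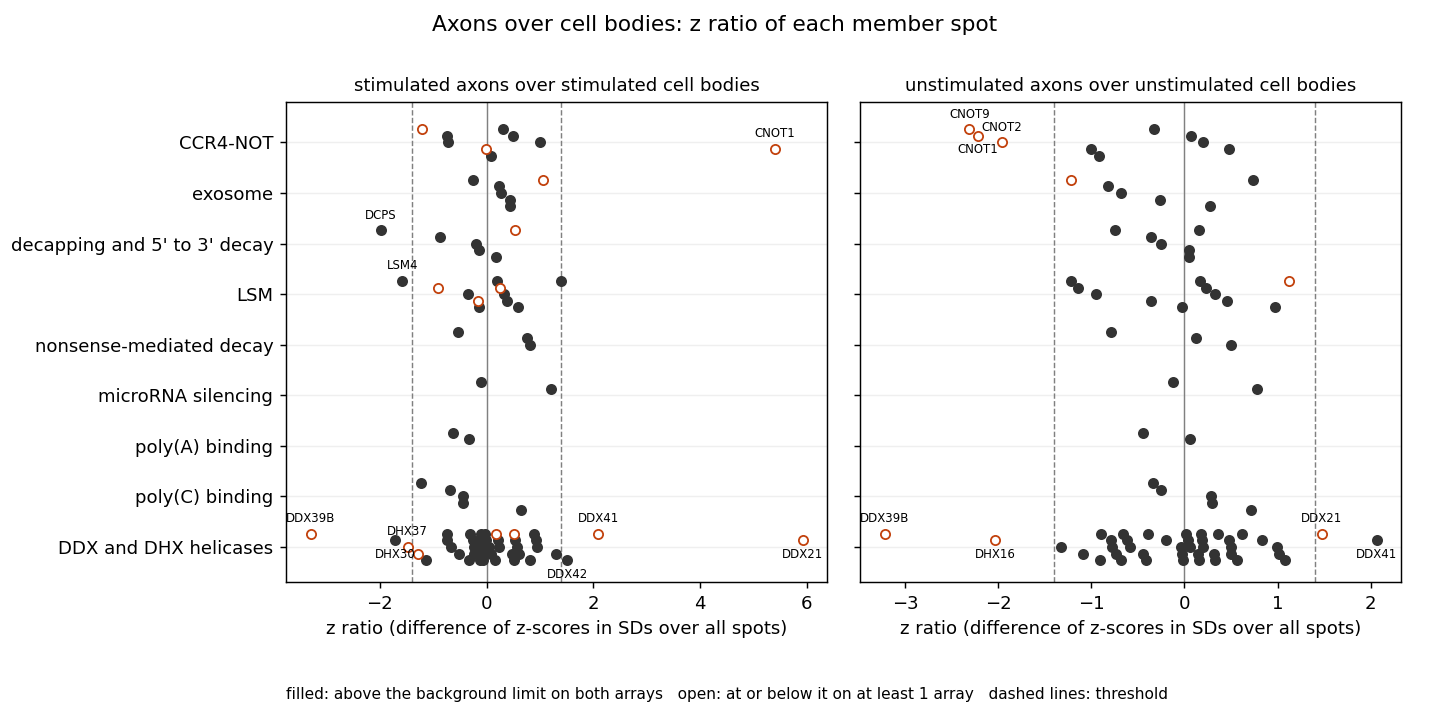
z ratio of each of 86 member spots for stimulated axons over stimulated cell bodies (left) and unstimulated axons over unstimulated cell bodies (right), grouped by role, on different horizontal scales. Filled points were above background on both arrays, open points were not, and dashed lines mark 1.4 in size. DCPS lies at -1.976 with stimulation and at -0.361 without, and DDX41 lies past 2 in both panels, as an open point on the left.

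DDX41, a helicase of splicing and of innate DNA sensing, was the single member that was higher in unstimulated axons and measured there on both arrays. It read 34.52 in stimulated axons, 37.43 in unstimulated axons, 5.29 in stimulated cell bodies and 14.18 in unstimulated cell bodies. Its axon readings exceeded its cell body readings, but the background limits of the axon arrays were higher too. These were 42.53 in stimulated axons, 21.9 in unstimulated axons and 10 on both cell body arrays. The z ratio was 2.093 with stimulation, where both readings were under their limits, and 2.064 without (ratio 4.72). An unnamed spot next to it was at least 135 times as bright on every array.

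With stimulation, 3 measured spots were lower in axons than in cell bodies. DCPS gave -1.976 (ratio 0.313), from the readings above, and -1.765 after position centring. This comparison and that of stimulated with unstimulated axons share the stimulated axon array, which held its low reading. DHX30 gave -1.713 (ratio 0.359) and -1.223 after position centring, and its other spot gave 0.532. An LSM4 spot read 149.93 in stimulated axons, 176.62 in unstimulated axons, 474.16 in stimulated cell bodies and 532.68 in unstimulated cell bodies, with z ratios of -1.577 with stimulation (ratio 0.364) and -0.951 without. The gene's brightest spot, at 1609.77 in stimulated axons and 1999.69 in stimulated cell bodies, gave 0.388 and 0.459. DDX50 read 286.28 in stimulated axons, 272 in unstimulated axons, 748.53 in stimulated cell bodies and 730.61 in unstimulated cell bodies, and was under the threshold at -1.129 and -0.738. PCBP2, at -1.233 and -0.342, stood likewise under it. With stimulation, spots of CNOT1 and DDX21 were also past the threshold, at 5.407 and 5.926, and spots of DDX39B and DHX37 at -3.295 and -1.476. Each had a reading under the background limit on at least 1 of the 2 arrays.

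Without stimulation, the 5 lower spots were those of CNOT1, CNOT2, CNOT9, DDX39B and DHX16, none of them measured on both arrays. CNOT9 read 12.18 in unstimulated axons, under the limit, and 77.16 in unstimulated cell bodies, at least 1.97-fold lower in axons. CNOT1 and CNOT2 were at least 1.51-fold and 1.24-fold lower. The DDX39B spot, at 7.49 in unstimulated axons and 84.12 in unstimulated cell bodies, was at least 2.15-fold lower, and the other DDX39B spot, measured at 66.96 in unstimulated axons and 92.22 in unstimulated cell bodies, gave a z ratio of 0.155. DHX16 had 15.24 in unstimulated axons and 81.38 in unstimulated cell bodies at its dim spot, at least 2.08-fold lower, and 0.503 at its brighter one.

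The bright members lay mostly above 0 in axons, as bright spots did in general, except with a log2 ratio and stimulation, where the median of the bright members was -0.104. Over 1 SD above the array mean, 14 of 18 member spots were above 0 with stimulation, with a median of 0.636, and 16 of 18 without, with a median of 0.47. The medians of all 1481 named spots of that brightness were 0.547 and 0.412. With loess, which levels such trends, the medians of the members were 0.082 and 0.135. DDX42 gave 1.517 with stimulation and 1.079 without, with a ratio of 1.23 with stimulation and no call with a log2 ratio, quantile normalization or loess, and LSM14A gave 1.398 and 0.973. AGO2 gave 1.2 and 0.774 at its bright spot, SMG5 0.813 and 0.497, DDX39A 0.618 and 0.614, and CNOT3 1.004 and 0.483. Below the array mean the 50 member spots had medians of -0.101 with stimulation and -0.295 without, beside -0.106 and -0.21 for all named spots.

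**Figure D5:**
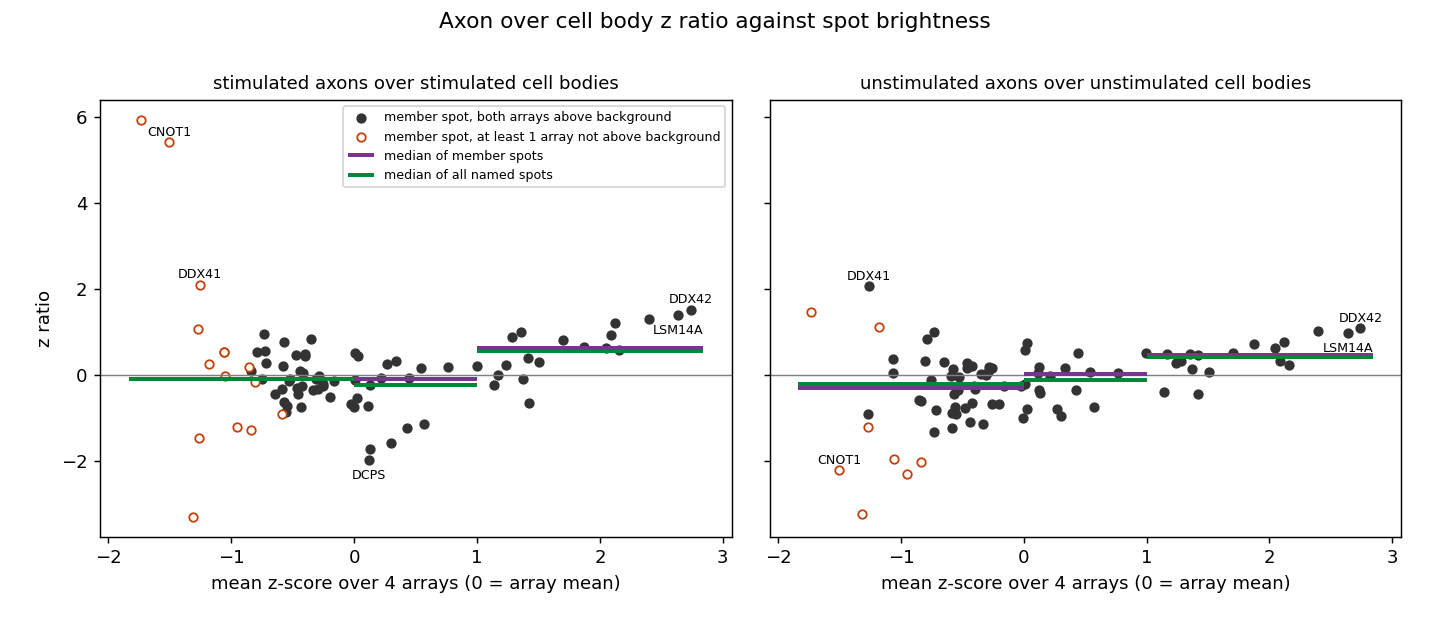
z ratio of stimulated axons over stimulated cell bodies (left) and unstimulated axons over unstimulated cell bodies (right) against brightness, the mean z-score over 4 arrays, for 86 member spots. Horizontal lines give the medians of member spots (purple) and of all named spots (green) in 3 classes of brightness. The medians of the brightest class are 0.636 for members and 0.547 for all named spots with stimulation, and 0.47 and 0.412 without.

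The exosome was above 0 in all 5 genes with stimulation (median 0.442, but 0.248 with quantile normalization, 0.183 with loess and 0.08 with position centring), or in 4 of 5 with a log2 ratio or position centring, and in 2 of 5 without stimulation (median -0.259, but 0.046 with quantile normalization and 0.058 with loess). EXOSC3 counts as above 0 with stimulation at 0.008, from spots of -0.256 and 0.273. EXOSC5, the highest at 1.056, was not above background on either of these arrays. Of all 6284 genes, 2969 were above 0 and 3315 below 0 with stimulation, and 2886 were above 0 and 3398 below 0 without. The NMD factors SMG5 and SMG8 gave 0.813 and 0.758 with stimulation, and SMG9 gave -0.539. The poly(C) binding proteins had all 3 genes below 0 with stimulation (median -0.435), or 2 of 3 with a log2 ratio or a robust z-score, and 1 of 3 without (median 0.251). Of the 70 spots above background on 4 arrays, 26 were higher and 26 lower in axons in both comparisons, which is 74.3%, beside 73.9% of all named spots.

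Clones of 1 gene did not share a level. The 3 spots of DDX54 read 10996.43, 1022.15 and 146.27 in stimulated axons, the 3 of PCBP4 read 3848.58, 114.11 and 51.14, and the 3 of DDX21 read 850.65, 258.19 and 39.65, so that a level belongs to a spot and not to a gene. The ratio of the brighter to the dimmer spot's mean intensity was 141.2 for AGO2, and 1.17 for DDX24, whose spots gave -0.637 and 0.097 in axons. DDX27, another ribosome assembly helicase, had 3 spots with z ratios between -0.224 and 0.535 in axons and between -0.008 and 0.293 in cell bodies. The SD of 1 member spot around its gene, over pairs measured on both arrays, was 0.686 for stimulation in axons (20 pairs), 0.47 for stimulation in cell bodies (25 pairs), 0.802 for axons against cell bodies with stimulation (21 pairs) and 0.57 without (22 pairs). A brighter neighbour in the deposited order lay beside 54 of the 86 member spots on every array, and for 33 it was at least 5 times as bright. The part of neighbours in these readings was not tested.

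Beyond the symbols above, 101 genes of the same pathways were listed, and 47 of them were spotted, with 68 spots. In stimulated against unstimulated axons 5 of these spots were higher (7.35%) and 4 lower (5.88%), beside 3.34% and 5.6% of all named spots, and in cell bodies 3 were higher (4.41%) and 7 lower (10.3%), beside 1.49% and 3.39%. Axons had 2 higher (2.94%) and 3 lower (4.41%) with stimulation, beside 2.92% and 5.74%, and 3 higher (4.41%) and 8 lower (11.8%) without, beside 3.6% and 3.41%. The medians over the 47 genes were 0.143 in axons, 0.022 in cell bodies, -0.036 for axons against cell bodies with stimulation and -0.069 without. EIF4A2, the helicase of translation initiation, was the single gene with a spot past the threshold above the array mean. That spot read 83.28 in stimulated axons, 91.53 in unstimulated axons, 307.43 in stimulated cell bodies and 854.59 in unstimulated cell bodies, with z ratios of -1.78 for stimulation in cell bodies and -2.723 for unstimulated axons against unstimulated cell bodies. Its 3 other spots gave -4.005, -1.327 and 0.042 for stimulation in cell bodies, and the last of these was the brightest, at 898.29 in stimulated cell bodies and 990.12 in unstimulated cell bodies.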

How the data were processed

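RNA from each compartment was amplified before hybridization, as the paper states, and the part of amplification in these values was not tested. It was labelled with a radioactive nucleotide and hybridized to nylon membranes of cDNA clones. The authors deposited 1 raw intensity per spot, per the labels read with a phosphor imager, in 2 tables that hold the same values. The treatment of background before deposit was not given in the sources used here. z-scores, z ratios and the threshold of 1.4 follow the study's methods. Symbols come from the platform's annotation. The spots that name several genes (21) or none (1083) were left out of lists but kept in z-scores. The background limit is the 95th percentile of 384 unnamed blank spots, at places 25 and 50 of each row of 50 in the deposited order, on axon arrays, and 10, assumed to be a filled-in reading, on cell body arrays. A fold against a reading under its limit is a bound computed at that limit. The members and lists were chosen with earlier results of these data known. Named genes follow a rule: in each comparison, helicases and decay factors whose mean z ratio was 1.4 or more in size, the 4 highest and 4 lowest with every spot above the array mean, genes with 3 or more spots, and the 3 brightest of each kind, and others are named to complete their complexes. No p-value was computed, as each condition has 1 array, and precision is limited by that number of arrays. Of 15 alternatives, 14 were planned and 1, only spots above the background limit on both arrays, was added after seeing the data. Thresholds of 1.3 and 2, loess with a span of 0.3 and normexp with an offset of 50 are among them. Code was tested on simulated data and used Python 3.11.15, numpy 2.4.6, pandas 2.3.3, R 4.3.3 and limma 3.58.1.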

Additional observations from a re-analysis of the deposited data

Results flagged for a closer look

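CNOT1, the scaffold of the CCR4-NOT complex, had a z ratio of 2.711 in stimulated against unstimulated axons and of -8.435 in stimulated against unstimulated cell bodies, z ratios of opposite sign from its single spot, and the difference was not tested. Both axon readings were under their limits, so that no difference was measured in axons, and all of these values rest on readings under a background limit on at least 1 array (42.48 in stimulated axons, 10 in unstimulated axons and 0.59 in stimulated cell bodies). EXOSC5, a subunit of the exosome ring, likewise had 1.889 in axons and -1.403 in cell bodies, from readings of 31.06 in stimulated axons, 10.32 in unstimulated axons, 10 in stimulated cell bodies and 31.62 in unstimulated cell bodies, with both axon readings under their limits too, and the difference was not tested.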

How the results depend on the processing

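With 1 array per condition, depth and error between cultures cannot be had, and dim spots limit most calls. The number of member spots past the threshold was 11 for stimulation in axons, 6 for stimulation in cell bodies, 7 for unstimulated axons against unstimulated cell bodies and 9 for stimulated axons against stimulated cell bodies. In that order it was 0, 2, 0 and 2 when the difference of z-scores was not divided by its SD, where the same threshold is farther out and 0.282%, 0.259%, 0.471% and 0.424% of all named spots passed. With a log2 ratio it was 7 in axons (8.14%, beside 6.07% of all named spots) and 18 for stimulated axons against stimulated cell bodies (20.9%, beside 18.8%), and with a robust z-score it was 17 in the last comparison (19.8%, beside 14.7%), where the median of all named spots moved to 0.294. With normexp it was 11 in cell bodies (12.8%, beside 13.8%). With spots above the array mean it was 0 of 32 in axons, beside 12.4% of all named spots, 2 of 36 for unstimulated axons against unstimulated cell bodies, beside 11.6%, and 5 of 34 for stimulated axons against stimulated cell bodies, beside 12.9%. A threshold of 2 gave 5 in axons (5.81%, beside 3.11%) and 4 in the last comparison (4.65%, beside 3.14%). The cause of the other shifts was not tested, and the other 47 counts were within 1.5 times of those reported. They include counts from the second deposited table, which holds the same values and could not differ. The 25 calls of named genes were tried 282 times, and 222 stayed past the threshold with their sign. The tries with the second deposited table could not move a call. DDX39B in unstimulated axons against unstimulated cell bodies, -1.532, turned to 0.517 with spots above 10 on both arrays and to 0.51 with spots above background on both arrays, since its dim spot drops out. Of the medians of helicases and decay genes, 105 of 120 moved by less than a limit set from the spread between clones. These include the tries with another threshold and with the second deposited table, neither of which could move a median. The median of the helicases in cell bodies turned from -0.034 to 0.119 without spots at or below 10. No paired analysis was possible because each condition is 1 array.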
